A study of Mus musculus with 3 samples.

Results

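Secreted Wnt antagonists are extracellular proteins that keep Wnt ligands from signalling. The 10 genes described here are Sfrp1, Sfrp2, Sfrp4, Sfrp5 and Frzb of the secreted frizzled-related family, Wif1, the Dickkopf genes Dkk1, Dkk2 and Dkk3, and Sost, which encodes sclerostin. They were chosen as a named family, with earlier results of these data known. Each was found on the arrays through its RefSeq transcript accession, and they make up 10 of 20275 named genes. Each had 1 named probe with 1 spot per array. Their expression was read from 3 Agilent mouse arrays, each hybridised with Cy3-labelled RNA from primary mesenchymal stem cells (MSCs), stromal cells of the marrow with the potential to become osteoblasts, chondrocytes or adipocytes. All cells came from the marrow of male mice 8 weeks old and were grown in αMEM with serum. The 3 groups were uninduced MSCs at day 0, and osteogenic cultures labelled as osteoblasts after 3 and 21 days with 50 µg/mL ascorbic acid, needed for collagen maturation, and 10 mM beta-glycerophosphate, a phosphate source for mineral. Each group had 1 array, so no difference has a replicate check, no p-value was computed, and the labels do not say how many animals or cultures stand behind an array.

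In the canonical pathway a Wnt protein joins a Frizzled receptor to the co-receptor Lrp5 or Lrp6, beta-catenin escapes degradation, and TCF and LEF factors switch on target genes. Secreted frizzled-related proteins and Wif1 bind the Wnt protein itself, whereas Dkk1, Dkk2 and sclerostin bind the co-receptor. Dkk3 is the divergent member of the Dickkopf family and is not a typical Wnt inhibitor. In bone, canonical signalling drives osteoblast formation and holds back fat formation, and sclerostin from osteocytes, the cells embedded in mineralised matrix, is the antagonist best known as a drug target.

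A probe was read as present where the scanner software marked it well above background, a mark whose lowest signal was 10.2 on the day 0 array, 10.5 on the day 3 array and 8.24 on the day 21 array. By it, 6 of the 10 antagonists were present at day 0, 7 at day 3 and 8 at day 21. Of all named genes 63.8%, 64.7% and 66.2% were present on these arrays, so the day 0 and day 3 counts were near that share. Signals below are linear processed intensities with the software's own error for the spot, which covers the array and not the culture. Log2 differences are later day minus earlier day after each array was scaled to its 75th percentile. The technical SD of a log2 difference, taken from repeated spots of 1 probe within an array, was 0.16. It does not cover spread between arrays, slides or labellings. The software's error of a measured member difference was larger, from 0.20 (Dkk3, day 21 against day 3) to 0.34 (Wif1, day 3 against day 0). A gene was called higher or lower at 2-fold, a log2 difference of 1 or -1. Where a probe was present on only 1 of 2 arrays, the difference is a bound and is given as an at-least fold. The dim side of a bound was taken as the lowest value marked present on its array, or as the probe's own value if that was higher. The day 3 array lay on a slide and scan of its own, while day 0 and day 21 shared a slide and a scan, so in the comparisons with day 3 slide and day cannot be told apart.

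Several antagonists were higher at day 3, more of them at day 21, and Dkk1 was lower at both days than at day 0. At day 3 against day 0, 8 of the 10 had a measured difference or a bound. Of these 8, 5 were called higher (Sfrp1, Sfrp2, Frzb, Wif1 and Dkk2), against 9.32% of all named genes with a measured difference or a bound. Dkk1 was the 1 member called lower, against 8.54% of all such genes. At day 21 against day 0, 7 of the 9 members with a difference or bound were called higher, against a background of 15.5%. These were the same 5 with Sfrp4 and Sfrp5. Dkk1 was again called lower, against 17.8%, and 1 of 9 is not above that share. At day 21 against day 3, 6 of the 8 members with a difference or bound were called higher, against 9.02%, and 0 lower, against 8.26%. Over members measured on both arrays the median log2 difference was 1.20 at day 3 against day 0 (5 genes), 2.38 at day 21 against day 0 (5 genes) and 1.68 at day 21 against day 3 (7 genes), beside -0.08, -0.21 and -0.10 over all measured genes. The medians leave out the members that were dim on 1 or both arrays. Because the list was chosen with earlier results of these data known, these shares and medians only describe it. In bulk RNA, more cells of an expressing type and more RNA per cell cannot be told apart.

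**Figure D1:**
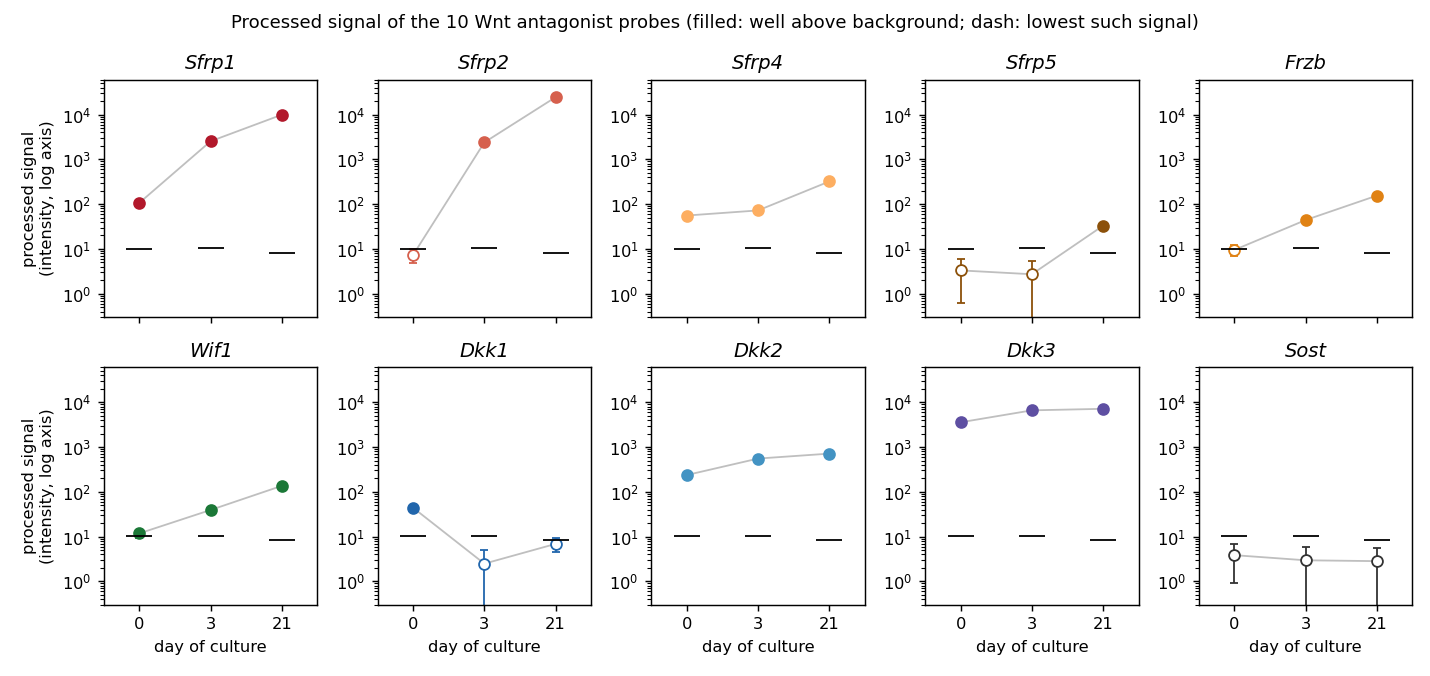
Processed signal (intensity, log axis) of each antagonist's probe at day 0, 3 and 21, 1 array a day. Filled circles are well above background, open circles are not, bars are the software's error for the spot (a bar that reaches 0 runs off the log axis), and dashes mark the lowest signal called well above background on that array; Sfrp2 reached 24404 at day 21, Dkk1 was present at day 0 only, and Sost on no array.

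Among the secreted frizzled-related genes, Sfrp1 and Sfrp2 had the largest differences of the 10 in the comparisons with day 0. Sfrp1, which binds Wnt proteins and restrains bone formation in mice, had a signal of 107 ± 11 at day 0, 2534 ± 253 at day 3 and 9918 ± 992 at day 21. It was present on every array, and each later array was brighter. It was 23.4-fold higher at day 3 than at day 0 (log2 difference 4.55), 83.8-fold higher at day 21 than at day 0 (6.39) and 3.58-fold higher at day 21 than at day 3 (1.84).

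Sfrp2, a Wnt-binding family member also named Sdf5, had a signal of 7.35 ± 2.47 at day 0, 2389.7 ± 239 at day 3 and 24404 ± 2440.4 at day 21. Its probe was dim at day 0 and bright on both induced arrays. It was at least 231-fold higher at day 3 and at least 2161-fold higher at day 21 than at day 0, and 9.35-fold higher at day 21 than at day 3. Of the 10 antagonists it had the largest measured difference or bound in each comparison, by a bound in those with day 0. At day 21 against day 3 Sfrp5 had only a bound, so the 2 genes cannot be ranked there. With no filter on dim probes the log2 differences were 3.47 for Sfrp5 and 3.22 for Sfrp2.

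Sfrp4, whose loss causes a cortical bone disorder in humans, had a signal of 55.7 ± 6.0 at day 0, 72.4 ± 7.60 at day 3 and 321 ± 32.2 at day 21. The day 0 and day 3 arrays were close and the day 21 array stood above both. Its log2 difference at day 3 against day 0 was 0.36, which was not called and turned to -0.21 when the arrays were scaled to their spike-in probes. At day 21 it was 5.21-fold higher than at day 0 and 4.06-fold higher than at day 3.

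Frzb, also named Sfrp3 and known for its role in joint cartilage, had a signal of 9.50 ± 2.71 at day 0, 44.1 ± 5.13 at day 3 and 155 ± 15.7 at day 21. The day 0 probe sat just under the lowest signal marked present there. Frzb was at least 4.27-fold higher at day 3 and at least 13.7-fold higher at day 21 than at day 0, and 3.21-fold higher at day 21 than at day 3. Sfrp5, which fat tissue secretes, had a signal of 3.31 ± 2.69 at day 0, 2.72 ± 2.73 at day 3 and 33.0 ± 4.18 at day 21. It was present on the day 21 array only, where it was at least 2.92-fold higher than at day 0 and at least 2.86-fold higher than at day 3. Both signals were dim enough that background handling mattered. Under normexp background correction with an offset of 50, which shrinks dim differences, the Frzb bound was 0.61 (log2) at day 3 against day 0 and the Frzb difference at day 21 against day 3 was 0.89. The Sfrp5 bounds were then 0.34 against either earlier day, so all 4 calls were lost.

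Wif1, which binds Wnt proteins through a domain of its own family, had a signal of 11.8 ± 2.46 at day 0, 39.3 ± 4.50 at day 3 and 136 ± 13.7 at day 21. The day 0 value lay barely above the lowest signal marked present. Wif1 was 3.28-fold higher at day 3 and 10.4-fold higher at day 21 than at day 0, and 3.16-fold higher at day 21 than at day 3. Under normexp correction the log2 difference was 0.45 at day 3 against day 0 and 0.94 at day 21 against day 3, both under 2-fold, and 1.39 at day 21 against day 0.

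The 3 Dickkopf genes did not move together. Dkk1, which blocks Lrp5 and Lrp6 and is itself a known target of beta-catenin, had a signal of 44.0 ± 5.03 at day 0, 2.49 ± 2.49 at day 3 and 6.87 ± 2.44 at day 21. It was well above background only before induction. By the software's weaker mark, positive and significant, it also passed at day 21, and it was then called higher at day 21 than at day 3, as it was with no filter on dim probes. Dkk1 was at least 4.23-fold lower at day 3 and at least 5.91-fold lower at day 21 than at day 0, and the probe was not well above background on either induced array, so these were not compared in the counts above. Under normexp correction the bounds were -0.76 and -0.78 (log2), under 2-fold.

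Dkk2, which can inhibit or weakly activate signalling depending on the context and is needed for full matrix mineralisation in mice, had a signal of 237 ± 23.8 at day 0, 553 ± 55.3 at day 3 and 713 ± 71.3 at day 21. The day 3 and day 21 arrays were close to each other and both above day 0. Dkk2 was 2.30-fold higher at day 3 and 2.71-fold higher at day 21 than at day 0, and its log2 difference at day 21 against day 3 was 0.24. The call at day 3 was lost under spike-in scaling (log2 difference 0.63). Dkk3 had a signal of 3571 ± 357 at day 0, 6598 ± 660 at day 3 and 7140.2 ± 714 at day 21. It was bright on all arrays and within 2-fold throughout, with log2 differences of 0.87 at day 3 and 0.85 at day 21 against day 0, and -0.01 at day 21 against day 3. At day 21 against day 0 it passed 2-fold when the percentile was taken over spots present on all arrays, or under quantile normalization.

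Sost had a signal of 3.85 ± 2.91 at day 0, 2.96 ± 2.97 at day 3 and 2.83 ± 2.85 at day 21. These lie about as far from 0 as the software's error, and the probe was well above background on no array, so no fold is given. Of 5 osteocyte markers, 3 were present at day 0, 3 at day 3 and 5 at day 21, beside 63.8%, 64.7% and 66.2% of all named genes. The matrix gene Dmp1 and the endopeptidase gene Phex appeared on the day 21 array alone, at least 3.20-fold and at least 11.5-fold higher than at day 0.

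**Figure D2:**
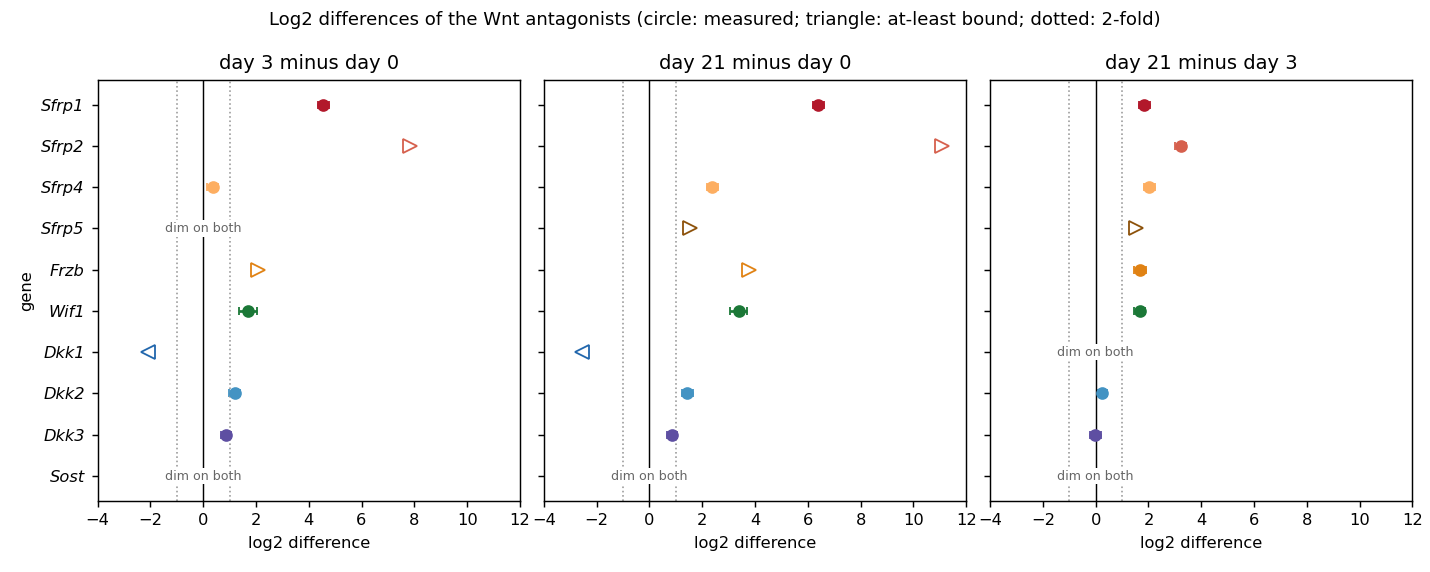
Log2 difference (later minus earlier day) of each antagonist in the 3 comparisons. Circles are measured on both arrays with the software's error of the difference as bars, open triangles are at-least bounds, and dotted lines mark 2-fold; at day 21 minus day 0 the highest are Sfrp2 (at least 2161-fold) and Sfrp1 (6.39), and Dkk1 stands alone below 0.

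The steps before and after day 3 differed between antagonists. Of the log2 difference between day 21 and day 0, the part already seen at day 3 was 71.2% for Sfrp1 and 15.1% for Sfrp4, whose steps were 0.36 and 2.02. Under spike-in scaling it was 65.0% for Sfrp1 and -9.95% for Sfrp4. It was 83.4% for Dkk2, but 53.9% under spike-in scaling. Wif1 had steps of 1.72 before and 1.66 after day 3, a part of 50.8%, but 1.15 and 1.96 (36.9%) under spike-in scaling and 0.45 and 0.94 (32.4%) under normexp correction. Dkk3, called in no comparison, had 102%, but 50.9% under spike-in scaling. Of the members dim at day 0, Sfrp2 and Frzb were present by day 3 and had further steps of 3.22 and 1.68, whereas Sfrp5 was still dim at day 3. The first interval spans 3 days and the second is longer, and the order of these shares was not tested.

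**Figure D3:**
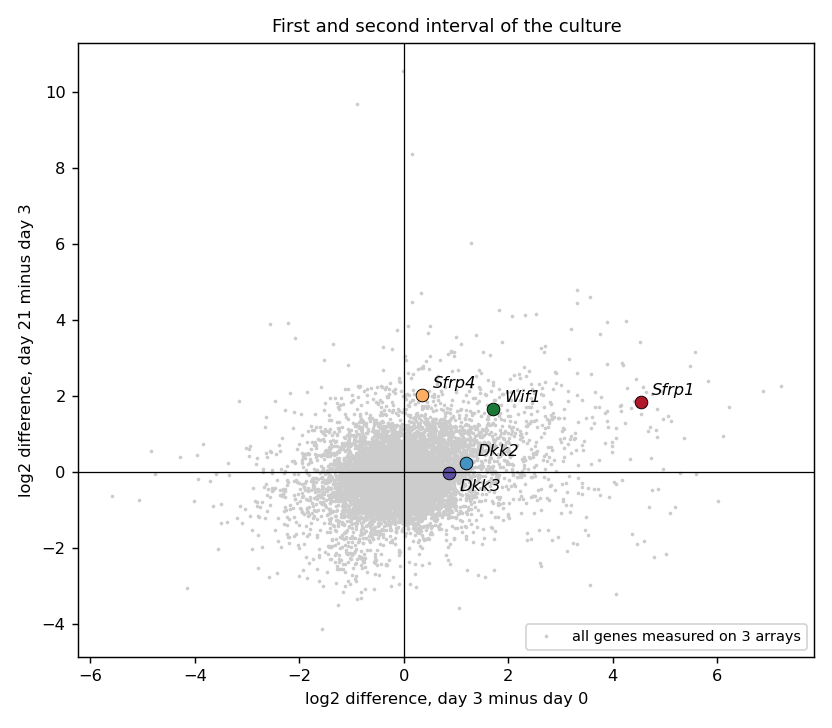
Log2 difference of day 3 minus day 0 (horizontal) against day 21 minus day 3 (vertical) for every gene present on all 3 arrays (grey) and the 5 antagonists among them (coloured). Sfrp1 lies far to the right at 4.55, Sfrp4 moved mainly upward at 2.02, Wif1 lies near the diagonal, and Dkk2 and Dkk3 lie near the horizontal axis.

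For each of these 5 antagonists the genes with the nearest pair of steps were sought among 7898 single-probe genes present on all arrays. Nearness was the Euclidean distance over the 2 log2 steps, and it describes 3 arrays only. The technical SD of 0.16 for 1 log2 difference served as a fixed cut-off for counting near genes. A distance over 2 steps between genes spreads more widely, so the counts do not tell which genes differ technically. Nearest to Sfrp1 was Igfbp3, an insulin-like growth factor binding protein (distance 0.14, steps 4.41 and 1.87), and it was the 1 gene within the technical SD. Sfrp4 had 5 genes that near, led by Kctd12 (0.04) and the bone matrix gene Mepe (0.09), and the semaphorin Sema3b lay within it of Wif1 (0.15). Dkk2 had 24 genes within the technical SD, led by Wdpcp (0.04), and Dkk3 had 56, led by the TCF family factor Tcf7l1 (0.01).

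Promoter windows are shown for Dkk1, the antagonist well above background only at day 0, and for Sfrp2, Frzb and Wif1, which were higher in both induced cultures. The RefSeq promoter table (build GRCm38.p6) held 7 of the 10 genes, each window running from 250 bases before the start of transcription to 50 after it. Capitals mark matches to TCF/LEF-type motifs, which were searched on both strands. The first motif searched was CTTTGAT. The second motif that was searched reads CTTTGAA. The third motif of this type that was searched reads CTTTGTT.
Dkk1 promoter, chr19:30549447-30549746, minus strand: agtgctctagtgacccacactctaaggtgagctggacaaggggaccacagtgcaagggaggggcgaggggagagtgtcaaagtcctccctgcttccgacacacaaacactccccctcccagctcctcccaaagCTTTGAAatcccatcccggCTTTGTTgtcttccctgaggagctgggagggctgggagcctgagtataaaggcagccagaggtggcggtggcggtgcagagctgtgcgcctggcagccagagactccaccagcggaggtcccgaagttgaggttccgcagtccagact
Sfrp2 promoter, chr3:83766071-83766370, plus strand: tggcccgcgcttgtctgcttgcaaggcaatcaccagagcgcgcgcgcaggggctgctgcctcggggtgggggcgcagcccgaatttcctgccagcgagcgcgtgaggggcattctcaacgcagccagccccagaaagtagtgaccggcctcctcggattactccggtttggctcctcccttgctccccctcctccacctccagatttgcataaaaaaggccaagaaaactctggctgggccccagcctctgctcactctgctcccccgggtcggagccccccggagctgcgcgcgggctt
Frzb promoter, chr2:80447347-80447646, minus strand: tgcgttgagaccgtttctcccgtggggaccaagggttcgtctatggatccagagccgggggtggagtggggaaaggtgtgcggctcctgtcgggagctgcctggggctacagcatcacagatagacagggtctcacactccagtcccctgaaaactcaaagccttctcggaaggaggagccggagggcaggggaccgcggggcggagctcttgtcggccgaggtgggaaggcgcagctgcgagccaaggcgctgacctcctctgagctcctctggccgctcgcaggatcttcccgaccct
Wif1 promoter, chr10:121033754-121034053, plus strand: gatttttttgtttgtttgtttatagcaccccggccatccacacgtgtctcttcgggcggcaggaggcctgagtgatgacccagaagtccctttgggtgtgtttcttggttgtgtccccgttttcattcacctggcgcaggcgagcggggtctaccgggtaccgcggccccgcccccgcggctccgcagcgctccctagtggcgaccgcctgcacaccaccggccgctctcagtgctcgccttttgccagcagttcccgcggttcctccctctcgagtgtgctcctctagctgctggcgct

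In the Dkk1 window a match to CTTTGAA began 117 bases before the start of transcription. A further match, to the motif CTTTGTT, began 98 bases before the start, both being on the gene's own strand and without overlap. The other 6 windows, those of Sfrp2, Sfrp5, Frzb, Wif1, Dkk2 and Sost, held none of the 3 motifs on either strand. Of 32851 windows of the same length, 13.9% held at least 1 of them. The RUNX-type motif TGTGGTT was searched the same way. So was a close variant of it that is written TGCGGTT. These were in 0 of the 7 windows and at least 1 of them in 6.75% of all. The Wif1, Sfrp2 and Frzb windows held 25, 22 and 20 CG dinucleotides, the Sfrp5 window 15, and the median window 7. The window of Dkk2, also called higher at both induced days, held 11, near the 9 of the Dkk1 window, and that of Sost held 7. A letter match is a description and shows no binding.

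Around the antagonists, other extracellular Wnt modulators also contained many higher genes. Of 20 such genes, 16 had a measured difference or a bound at day 3 against day 0. Of these, 7 were higher and 3 lower, against 9.32% and 8.54% of all named genes. At day 21 against day 0 there were 9 higher and 1 lower of 16, against 15.5% and 17.8%. Those with the largest measured differences at day 21 against day 0 were Lgr5, a receptor for R-spondins (5.53), Rspo1, an R-spondin that strengthens Wnt signalling (5.30), the Wnt-binding carboxypeptidase Cpz (4.15) and Igfbp4, which besides insulin-like growth factors can bind Wnt receptors (3.77). The higher genes included both enhancers and inhibitors of the pathway by their known roles. Sostdc1, a relative of sclerostin, was at least 6.33-fold higher at day 3 and at least 7.73-fold higher at day 21 than at day 0, and was named after its value was seen.

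By their median, the Wnt ligand and secretion genes were closer to all measured genes than the antagonists were. Of 21 such genes 9 were dim on all arrays, and 12 had a measured difference or a bound against day 0. At day 3 against day 0, 2 of the 12 were higher and 2 lower, against 9.32% and 8.54% of all named genes. Wnt10a was at 2.36 and Wnt9a at -1.04. At day 21 against day 0, 3 were higher and 1 lower, against 15.5% and 17.8%. The largest measured differences there were Porcn, which acylates Wnt proteins (1.78), and Wnt16 (1.17). The median over measured ligand and secretion genes was 0.05 at day 3 and 0.10 at day 21 against day 0.

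Receptors were called in both directions against day 0. Of 16 receptor genes, 15 had a measured difference or a bound. At day 3 against day 0, 4 were higher and 2 lower, against 9.32% and 8.54% of all such genes. At day 21 against day 0, 6 were higher and 3 lower, against 15.5% and 17.8%, so the lower share was near the background. At day 21 against day 3, 6 were higher and 0 lower, against 9.02% and 8.26%. Fzd9 (5.01), Fzd4 (4.66) and Fzd1 (2.78) were the highest measured at day 21 and Fzd6 (-2.24) the lowest. Lrp6, the co-receptor that Dkk1 binds, was at 0.27 at day 3 and 1.52 at day 21 against day 0, whereas Lrp5 was at 0.15 and 0.10. Lrp4, a receptor for sclerostin, was at 1.80 at day 21. The Lrp genes are named for their role as antagonist targets, after their values were seen.

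Of 21 intracellular and target genes, 18 had a measured difference or a bound against day 0. At day 3, 2 of the 18 were higher and 2 lower, against 9.32% and 8.54% of all such genes. At day 21, 2 were higher and 4 lower, against 15.5% and 17.8%. As a list these counts were near the background, and the genes named below are its largest differences. Axin2 and Sp5, common readouts of canonical signalling, were dim on all arrays, as was Tcf7. At day 3 the transcription factor Lef1 was at -3.24, the matricellular target Ccn4 at -2.10, the feedback inhibitor Nkd2 at 1.90 and the cyclin Ccnd1 at 1.28. At day 21 Lef1 was no longer well above background and was at least 16.2-fold lower than at day 0. Ccn4 was then at -2.70, Nkd1 at 2.25 and Myc at -1.58 against day 0.

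**Figure D4:**
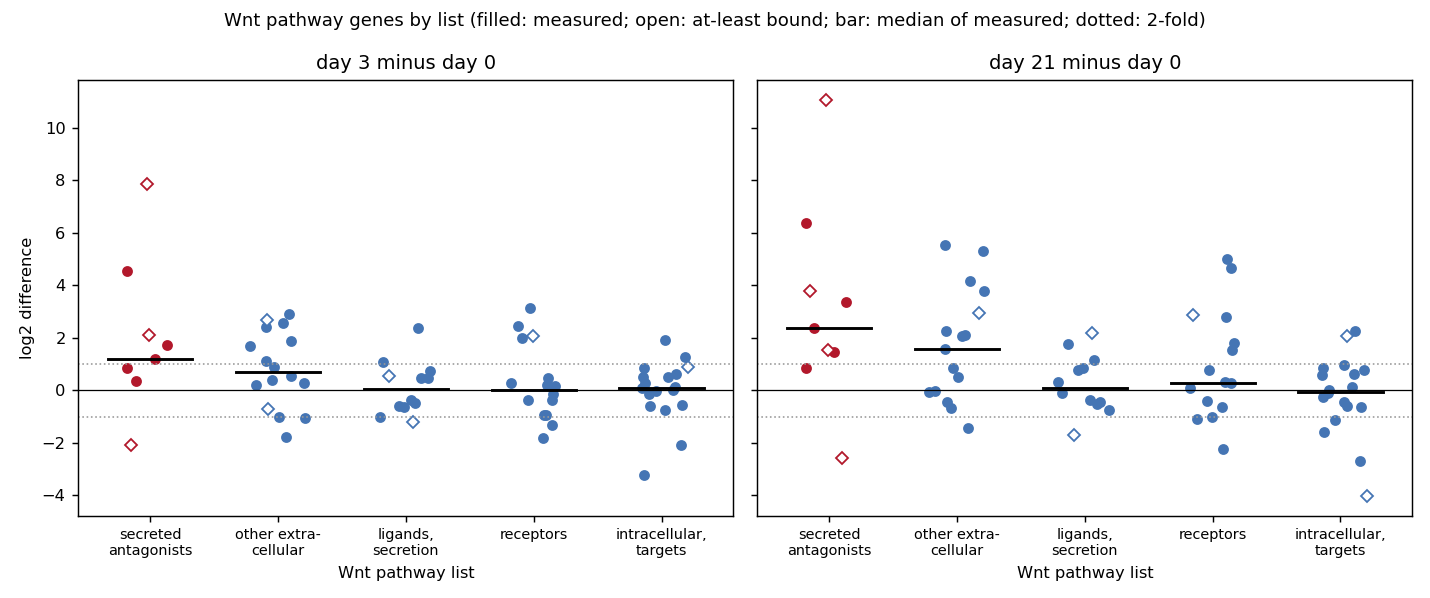
Log2 differences of Wnt pathway genes by list at day 3 minus day 0 (left) and day 21 minus day 0 (right), the secreted antagonists in red. Filled circles are measured, open diamonds are bounds, bars are the median of measured genes, and dotted lines mark 2-fold; the antagonist medians are 1.20 and 2.38, and the ligand medians 0.05 and 0.10.

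Markers of cell types that the cultures could hold were read on the same arrays. Beside the counts of markers present stand 63.8%, 64.7% and 66.2% of all named genes, present at day 0, 3 and 21. The shares to set beside all marker calls are those of calls over all named genes. They were 9.32% higher and 8.54% lower at day 3, and 15.5% and 17.8% at day 21, against day 0. All 10 MSC and stromal markers were present on every array, with 2 called higher and 1 lower at day 3 against day 0, and 3 higher and 1 lower at day 21. Of 8 osteoblast markers with a probe, 5 were present at day 0, 7 at day 3 and 7 at day 21, and 5 were called higher and 0 lower at each induced day against day 0. The matrix gene Ibsp was at least 63.7-fold and the phosphatase gene Alpl at least 29.1-fold higher at day 21 than at day 0, and Omd was at 5.26, Bglap2 at 3.58 and Spp1 at 2.74. Runx2 was at -0.37 and Col1a1 at -0.47 at day 21 against day 0, neither called, and the osteoblast factor Sp7 was dim on all 3 arrays. The summed osteoblast signal was 62439, 68207 and 57807 at day 0, 3 and 21, most of it from Col1a1 (61666, 65266 and 49263). Of 10 adipocyte markers, 5 were present at day 0, 9 at day 3 and 10 at day 21, with a summed signal of 1359, 6183 and 225436. Of them, 6 were called higher at day 3 and 9 at day 21 against day 0, with 0 lower. At day 21 against day 0, Retn was at least 1931-fold, Cidec at least 1718-fold and Adipoq at least 1238-fold higher. Cfd was at 10.5, Fabp4 at 8.23 and Pparg at 1.92, and Lep was not called.

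Of 9 chondrocyte markers, 6, 9 and 9 were present at day 0, 3 and 21, with a summed signal of 12552, 14943 and 68768. Without Comp, a cartilage and tendon matrix gene with a signal of 48888 at day 21, the sums were 12118, 12413 and 19880. Much of these sums was Col2a1, which was not called and had a signal of 11455, 8722 and 10171. At day 3 against day 0, 5 were called higher and 2 lower, Col10a1 (-3.15) and Acan (-1.77). By day 21, 5 were higher than at day 0 and 1 lower (Col10a1, -1.27). Of 7 fibroblast and tendon markers, 5, 6 and 6 were present, with a summed signal of 8254, 8749 and 19396. Of these, 3 were called higher and 1 lower at day 21 against day 0. Dpt was at least 97.1-fold higher, with Pi16 at 5.31, Cd34 at 5.05, Tnmd at 0.16, Mkx at 0.18 and the tendon factor Scx at -3.79. Dpp4 was dim on all arrays. Of 5 macrophage markers with a probe, Ptprc, Adgre1 and Mrc1 were present on no array. Csf1r had a signal of 575, 799 and 627 and Cd14 of 71.0, 197 and 365 at day 0, 3 and 21, with Cd14 4.65-fold higher at day 21 than at day 0. Of 5 endothelial markers, 2, 3 and 4 were present, with 0 called at day 3 and 1 called higher at day 21 against day 0. The part of these cell types in the antagonist differences was not tested.

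Across all named genes measured on both arrays, 963 were at least 2-fold higher and 978 lower at day 3 against day 0, 1582 and 2077 at day 21 against day 0, and 987 and 906 at day 21 against day 3. Spike-in scaling gave 506 and 3349, 1246 and 3168, and 1573 and 456. Scaling on spots present on all arrays gave 1874 and 1571 at day 21 against day 0 and 1157 and 691 at day 21 against day 3, and no scaling gave 1191 and 656 at day 21 against day 3. Spike-in scaling moved the median of all genes by -0.57, -0.27 and 0.30 (log2) in the 3 comparisons, and every antagonist difference by the same amount. Of the antagonist calls, only that of Dkk2 at day 3 changed under it.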

How the data were processed

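The members and gene lists were chosen with earlier results of these data known. The authors deposited 1 Agilent Feature Extraction file per array with linear spot intensity, and a value table whose intensity equals it (largest relative difference 0). Per the file headers the software was version 10.10.1.1, spot backgrounds were subtracted and spatial trends removed array by array, without scaling across arrays; the submitters' processing notes name version 12.0. The array design's build is not that of the gene table, so no probe positions are given. The promoter positions are those of GRCm38.p6.

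From these files, log2 of the processed signal was taken minus each array's 75th percentile over 59305 non-control spots (172, 175 and 191 at day 0, 3 and 21). Spots marked as outliers were left out (200, 115 and 146; none of a member), spots of a probe averaged, and a probe counted as present when at least 50% of its spots were well above background. Accessions without versions were matched to RefSeq genes of GRCm38.p6, naming 26749 of 55664 probes and 20275 genes. The brightest probe stood for a gene. The technical SD came from 399 probes spotted 10 times, by their spots well above background within each array. Saturated non-control spots numbered 0. With 1 array per group no test was run, and a fixed rule of 2-fold was used, checked on simulated data. The number of arrays limits the precision. All 10 members are described, with every pathway list by its counts and up to 4 of its largest measured differences; further genes are named for their known role. Tools were Python 3.11.15, numpy 2.4.6, pandas 2.3.3 and, for normexp, limma 3.58.1 in R 4.3.3. The files hold no mean spot signal, so normexp ran on the median signal. Alternatives were other scalings, normexp, probe averaging, the dim and outlier filters, thresholds of 1.5-fold and 3-fold, the deposited value table and, chosen after seeing the data, the software's positive and significant mark. A result on genes near Wif1 in pattern is not reported here.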

Additional observations from a re-analysis of the deposited data

How the results depend on the processing

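Under normexp background correction 3 antagonists were higher at day 3 against day 0 in place of 5, 3 in place of 6 at day 21 against day 3, and 0 lower in place of 1 in each comparison with day 0; its offset of 50 lies above the day 0 signals of Sfrp2, Sfrp5, Frzb, Wif1, Dkk1 and Sost. The other 74 planned recounts stayed within 1.5 times. By the positive and significant mark, chosen after seeing the data, 10 antagonists passed at day 0 in place of 6, Sost among them, and 1 of 9 recounts moved past 1.5 times. No member's called difference changed sign under any alternative run. Of 250 planned recomputed member differences, 188 moved by less than the technical SD of 0.16, and spike-in scaling moved 25 of 25. The deposited value table, probe averaging and the keeping of outlier spots each left 25 of 25 unmoved, but had nothing to change in the members. The value table equals the spot files, each member had 1 probe, and no member spot was an outlier. Their recounts among the 74 had nothing to change either. Over all measured genes, counts that differed by more than 1.5 times from the main ones were found with normexp (582 higher and 550 lower at day 3 against day 0; 613 and 466 at day 21 against day 3), with no filter on dim probes (1904 and 1685 at day 3 against day 0; 2786 and 3018 at day 21 against day 0; 1792 and 1689 at day 21 against day 3) and with spike-in scaling (506 and 3349, 1246 and 3168, and 1573 and 456, beside 963 and 978, 1582 and 2077, and 987 and 906). No paired analysis was possible because each group has 1 array. Signal over background limits Frzb, Wif1 and Dkk1, and Sost was well above background on no array. The 3 arrays do not cover the spread between cultures or animals.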
